A study of Rattus norvegicus with 15 samples.

Results

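The EGR, NR4A and KLF early factors described here were the 10 genes Egr1, Egr2, Egr3, Nr4a1, Nr4a2, Nr4a3, Klf2, Klf4, Klf6 and Klf10. They were chosen by name, as 3 EGR, 3 NR4A and 4 KLF genes of the 37367 genes in the deposited expression table, with no cut on a measured value. Each gene was given the sum of its transcripts, including unnamed transcripts assembled at a locus that holds no other gene name, so that the 10 genes took 25 of 85322 transcripts. All 10 genes passed the filter on low values, a mean of at least 0.5 FPKM (fragments mapped to a transcript, scaled to its length and to the depth of the library) over the libraries, as did 17895 of all genes.

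The libraries came from primary cultures of brain microvascular endothelial cells (BMECs), cells of the small vessels of the cerebral cortex, of Sprague-Dawley rats, littermates of both sexes aged 2 to 3 weeks. The 5 groups of 3 libraries each were unexposed control cells, which the labels give as cultured for 12 h, and cells exposed to x-rays, at 5 Gy or at 20 Gy, and collected after 12 h or 24 h. The methods call the replicates biological but do not say which animals gave which library, so p-values measure the spread between these libraries. No unexposed cells cultured for 24 h are among the groups, so time after exposure and time in culture cannot be told apart in the 24 h groups.

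EGR proteins are zinc finger activators, NR4A proteins are orphan nuclear receptors that act without a known natural hormone, and KLF proteins are zinc finger factors that bind GC-rich and CACCC sequences. Many of these genes are immediate early genes: existing transcription factors such as SRF with its partners, and CREB, switch them on within minutes of a growth factor, calcium or stress signal, without new protein synthesis. Their mRNAs are short-lived, so that a measured level follows recent transcription closely. In endothelium, KLF2 and KLF4 are known for keeping vessels quiescent under flow, and EGR1 and NR4A1 for responses to injury and to vascular growth factors.

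The DNA before the start of 3 of these genes is printed because they carry the contrast described below: Egr1 and Egr2 were low in every exposed group, whereas Nr4a1 was low at 12 h and high at 24 h. The sequences are the 250 bases before the gene start in RefSeq, build GRCr8, a later build than the one used for the expression values. Egr1 is at chr18:26736828-26737077 on the plus strand, Egr2 at chr20:21054442-21054691 on the minus strand, and Nr4a1 at chr7:134259888-134260137 on the plus strand. Capitals mark CArG boxes, the sites SRF binds, and CGTCA, the short form of the site that CREB binds.
Egr1: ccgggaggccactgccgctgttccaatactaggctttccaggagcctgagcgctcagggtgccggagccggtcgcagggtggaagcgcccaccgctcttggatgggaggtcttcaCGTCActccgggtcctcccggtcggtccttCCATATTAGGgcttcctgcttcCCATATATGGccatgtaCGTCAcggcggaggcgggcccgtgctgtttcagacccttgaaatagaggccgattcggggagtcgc
Egr2: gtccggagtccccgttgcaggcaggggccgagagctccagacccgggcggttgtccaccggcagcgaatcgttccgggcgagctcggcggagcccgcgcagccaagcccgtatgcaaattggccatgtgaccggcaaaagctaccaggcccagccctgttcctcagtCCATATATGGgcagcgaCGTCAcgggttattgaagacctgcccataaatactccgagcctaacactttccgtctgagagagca
Nr4a1: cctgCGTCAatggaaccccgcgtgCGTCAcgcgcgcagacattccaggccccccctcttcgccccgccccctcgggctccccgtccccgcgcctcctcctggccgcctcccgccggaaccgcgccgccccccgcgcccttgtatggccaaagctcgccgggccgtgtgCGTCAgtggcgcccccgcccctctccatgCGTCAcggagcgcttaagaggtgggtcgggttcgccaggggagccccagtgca

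RefSeq promoters were matched for 6 of the 10 genes, and both strands of the 250 bases were searched. Egr1 held 2 CArG boxes, which began 105 and 83 bases before the start, and 2 CGTCA matches, at 135 and 66 bases. Egr2 held 1 CArG box and 1 CGTCA, at the same 83 and 66 bases before its start as the nearer pair of Egr1. Nr4a1 held no CArG box and 4 CGTCA matches, at 246, 226, 82 and 53 bases. Among the other matched genes, Klf6 held 1 CArG box at 201 bases, Nr4a2 held 1 CGTCA at 8 bases, and Klf4 held neither. The RefSeq starts were taken as given and were not compared with the starts in the expression data. An assembled Nr4a2 transcript there begins farther upstream than the main one. A window may thus miss the promoter in use, and a low count, as for Nr4a2 and Klf4, does not show that the promoter lacks a site. Of all 33469 promoters in the table, 1.5% held a CArG box and 0.0209% held 2 or more, whereas 18.2% held CGTCA and 0.173% held 4 or more. Matches to the sites of the families themselves were few. The EGR site GCGNGGGCG occurred once before Nr4a1, at 73 bases, against 4.29% of all promoters with a match. CACCC, the core that KLF proteins bind, occurred 2 times before Egr1, against 18.9% of promoters with 2 or more and 49.2% with a match. The NR4A site AAAGGTCA was found in none of the 6 windows and in 1.24% of all promoters. None of these matches overlapped another in the 6 windows, and each is a match of letters, not a measured site.

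**Figure D1:**
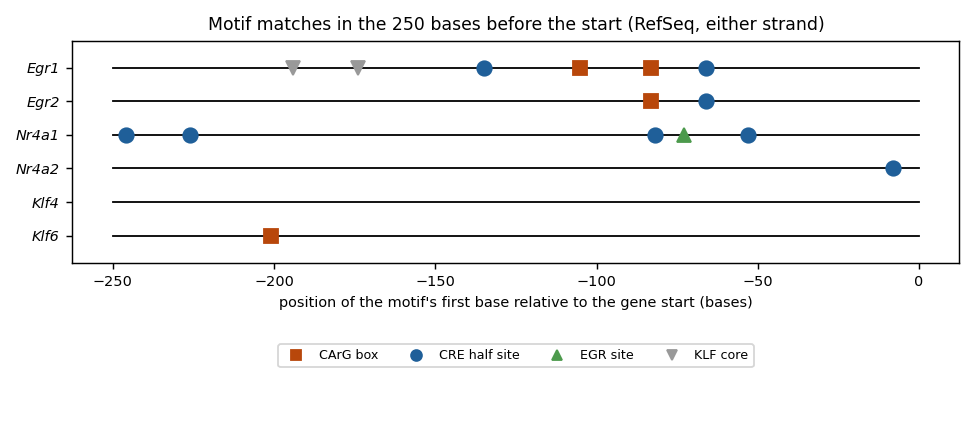
Matches in the 250 bases before the start of the 6 matched genes. The x axis gives the position of a motif's first base relative to the gene start in bases, each row is a gene, and symbols mark the kinds of motif. Egr1 and Egr2 share a CArG box at 83 bases and a CGTCA at 66 bases before the start, and Nr4a1 has 4 CGTCA matches.

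The values rested on 5.44 to 7.49 gigabases of aligned sequence per library, as estimated from the steps between low FPKM values. The cell type of the labels was checked against its markers. Of 11 endothelial markers found in the table, the summed level was only 2.48 to 6.63 FPKM in any library, with Tie1 and Emcn listed at 0 in all of them and group means of at most 0.191 FPKM for Cdh5, 0.0109 for Cldn5 and 0.0648 for Vwf. Fibroblast markers were abundant: the sum over 7 of them was 4163 to 4531 FPKM in the control libraries, 2334 to 3982 and 3129 to 3940 at 12 h after 5 Gy and 20 Gy, 1265 to 2178 at 24 h after 5 Gy and 903 to 1673 at 24 h after 20 Gy. Of the 7, 2, 2, 5 and 6 were called lower in those 4 comparisons with the control, beside 4.96%, 3.64%, 20.8% and 23.3% of all genes. Col1a1 went from a mean of 516 FPKM in the control to 27.0 and 31.4 FPKM at 24 h. The sum over 9 pericyte and smooth muscle markers was 154 to 162 FPKM in the control and 51.3 to 91.3 FPKM at 24 h, with Rgs5 at most 0.0758 FPKM in any group mean, Acta2 at most 0.526 and Kcnj8 at 0. Of the 6 of these 9 that were tested, 1, 2, 1 and 1 were called higher and 0, 0, 3 and 3 lower. Of all genes, 4.98%, 4.9%, 20.5% and 17% were called higher, with the shares called lower as above. Pdgfrb, Cspg4 and Anpep were the 3 called lower at 24 h, with log2 fold changes of -1.25, -0.98 and -0.81 after 5 Gy. After 20 Gy these were -1.85, -1.05 and -1.045. Myh11, of smooth muscle myosin, had means of 0.0608 FPKM in the control and 0.560 to 1.29 FPKM after exposure, and Notch3 0.153 FPKM in the control and 0.832 and 1.78 FPKM at 12 h. Astrocyte, neuron and microglia markers summed to at most 32.9, 12.1 and 26.6 FPKM, most of it from Aldh1l1, Syt1 and Tmem119. Of the 3 astrocyte markers tested, Aldh1l1 was called higher in all 4 groups (log2 fold changes 1.05 to 1.25). Slc1a2 moved the opposite way and was called lower in every exposed group except 5 Gy with 12 h. Its values were -0.89 for 20 Gy with 12 h, and -0.89 (5 Gy) and -0.70 (20 Gy) in the later groups. Slc1a3 was called in none. Tmem119 was called lower at 24 h (-1.02 and -0.99). Markers of several of these cell types thus moved with exposure and time in the same libraries as the genes below, and their part in the results was not tested. In bulk samples, fewer cells of a type and less RNA per cell cannot be told apart.

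The summed levels of the families are given first, although 1 member carries much of each sum. Summed over its genes, the EGR family stood at 90.2 ± 6.1 FPKM (SD, n = 3) in the control and at 7.47 ± 4.2, 22.2 ± 21.9, 2.46 ± 0.49 and 3.65 ± 0.44 FPKM at 12 h after 5 Gy, 12 h after 20 Gy, 24 h after 5 Gy and 24 h after 20 Gy. The NR4A family stood at 39.0 ± 2.4 FPKM in the control, at 7.36 ± 1.9 and 9.26 ± 1.7 FPKM at 12 h, and at 602 ± 104 and 938 ± 271 FPKM at 24 h. The KLF family stood at 93.3 ± 1.2 FPKM in the control, 93.9 ± 11.2 and 103 ± 3.0 FPKM at 12 h, and 579 ± 48.2 and 427 ± 80.1 FPKM at 24 h, of which Klf4 made up 546 and 393 FPKM. A gene was called changed at a Benjamini-Hochberg adjusted p below 0.05 in limma over all 17895 genes together with a fold change of at least 1.5 on the log2(FPKM + 1) scale, which understates the change of low genes.

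At 12 h, 4 of the 10 genes were called after each dose, Egr1, Egr2, Egr3 and Nr4a1, and all 4 were lower than in the control. Of all genes tested, 4.96% were called lower and 4.98% higher after 5 Gy, and 3.64% lower and 4.9% higher after 20 Gy. No gene of the 10 was called higher at 12 h by limma, and 1 was higher at an unadjusted p below 0.05 after each dose, Klf2 after 5 Gy and Klf4 after 20 Gy. At 24 h after 5 Gy all 10 were called, 5 higher and 5 lower, where 20.5% and 20.8% of all genes were called. At 24 h after 20 Gy, 8 of 10 were called, 4 higher and 4 lower, against 17% and 23.3% of all genes. The median log2 fold change of the 10 genes was -0.40 after both doses at 12 h, and 0.03 and -0.05 at 24 h, beside medians of all genes of 0.03, 0.01, -0.05 and -0.14. The 4 comparisons share the 3 control libraries, so their values are given side by side and are not independent of each other.

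**Figure D2:**
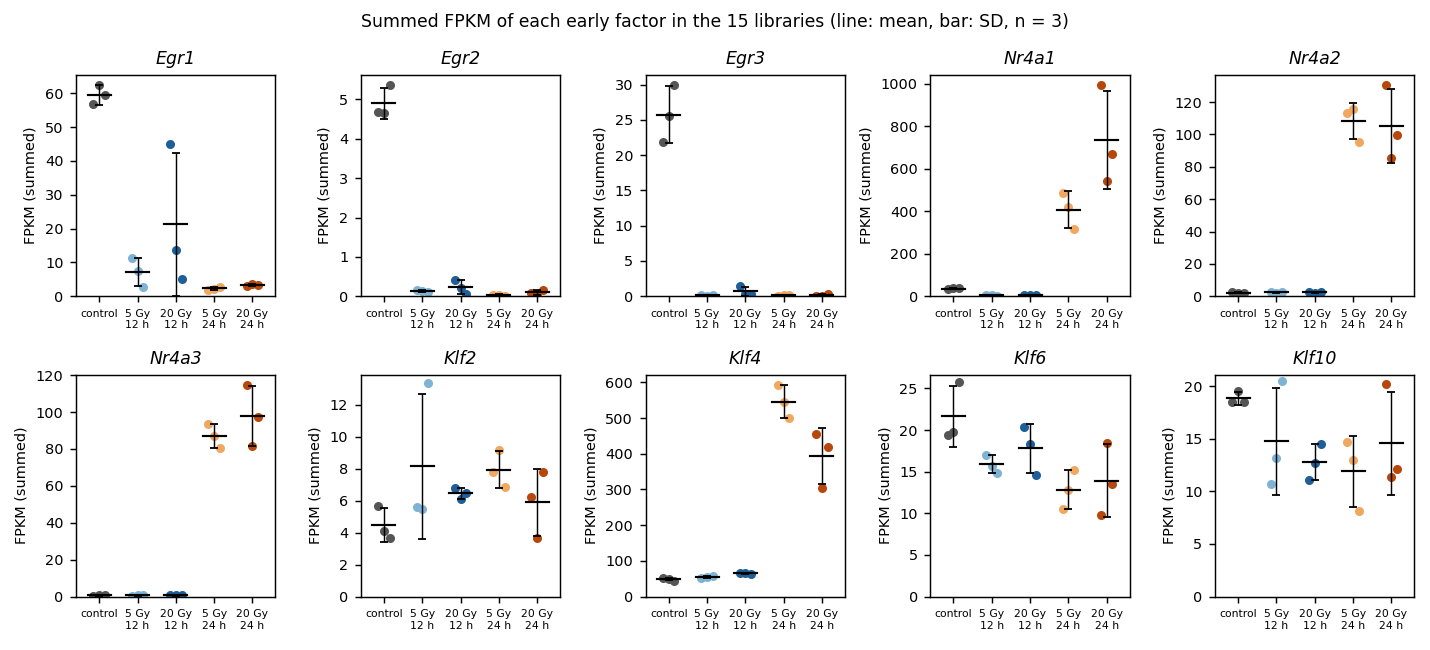
Summed FPKM (y axis, linear, from 0) of each of the 10 genes in the 5 groups (x axis), 1 point per library, with the mean (line) and SD (bar, n = 3, drawn only above 0). Egr1, Egr2 and Egr3 are highest in the 3 control libraries, Nr4a1, Nr4a2, Nr4a3 and Klf4 are highest in the 6 libraries of 24 h, and Klf2, Klf6 and Klf10 stay within 3.67 to 25.8 FPKM.

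Egr1, the best known member of its family and a factor that activates growth factor and tissue factor genes after injury, lies at chr18:27657628-27661429 (Rnor_6.0, plus strand) and was measured by 1 transcript of 2 exons. It stood at 56.7, 62.4 and 59.4 FPKM in the control libraries. At 12 h it stood at 11.3, 7.46 and 2.86 FPKM after 5 Gy and at 45.1, 13.7 and 5.02 FPKM after 20 Gy. The 12 h libraries were all below the control, but those after 20 Gy spanned 5.02 to 45.1 FPKM. At 24 h the 6 libraries lay together, at 1.86, 2.26 and 2.78 FPKM after 5 Gy and 2.98, 3.77 and 3.37 FPKM after 20 Gy. The log2 fold change against the control was -3.04 and -1.92 at 12 h (SE 0.56, limma adjusted p = 0.00256 and 0.0348) and -4.20 and -3.79 at 24 h (adjusted p = 3.22e-05 and 8.28e-05). The ratio of group means was 8.26-fold and 2.80-fold lower at 12 h and 25.9-fold and 17.6-fold lower at 24 h. The call at 12 h after 20 Gy was lost in 9 of 17 alternatives, with adjusted p from 0.00178 to 0.125. It was lost on leaving out any 1 of the 3 control libraries (adjusted p = 0.0706, 0.0904 and 0.0866) and on leaving out replicate 2 or 3 after 20 Gy (adjusted p = 0.0906 and 0.125), whereas the 5 Gy call and both 24 h calls held in all 17.

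Egr2, known for its role in myelinating Schwann cells and in lymphocytes, lies at chr20:22454463-22459025 (minus strand) and was also measured by 1 transcript of 2 exons. Control libraries had 4.68, 4.65 and 5.36 FPKM. At 12 h, 0.153, 0.137 and 0.112 FPKM were measured after 5 Gy and 0.422, 0.216 and 0.0556 FPKM after 20 Gy. At 24 h, 0.0408, 0.0341 and 0 FPKM were listed after 5 Gy and 0.0730, 0.0596 and 0.157 FPKM after 20 Gy. All exposed libraries lay far below the control, and the lowest values rested on very few reads, equivalent to 6, 4 and 0 reads of 150 bases at 24 h after 5 Gy against 629 to 778 in the control. Log2 fold changes were -2.38, -2.27, -2.52 and -2.43 in the order of groups above (SE 0.11), with limma adjusted p of at most 1.58e-07.

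Egr3, which acts with Egr1 downstream of growth factors and antigen receptors, lies on the plus strand of chromosome 15, at chr15:51756182-51761249, and was near 0 in the exposed groups. Its control values were 21.8, 25.5 and 29.9 FPKM, against 0.145, 0.0806 and 0.167 FPKM at 12 h after 5 Gy. After 20 Gy at 12 h it had 1.45, 0.301 and 0.305 FPKM, all 3 above the 5 Gy libraries, where 12.8% of all genes did not overlap. At 24 h it had 0.0689, 0.144 and 0.178 FPKM after 5 Gy and 0.0835, 0.0893 and 0.363 FPKM after 20 Gy. These gave log2 fold changes of -4.55, -4.05, -4.55 and -4.50 (SE 0.21, limma adjusted p at most 1.71e-07), and group means 197-fold, 37.6-fold, 197-fold and 144-fold lower than the control. In the control, an assembled transcript of 3 exons with a mean of 13.7 FPKM and the annotated transcript ENSRNOT00000024067 with 12.1 FPKM shared the level, and ENSRNOT00000077072 was listed at 0 in every library.

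The relative Egr4, tested by no model because its mean was below 0.5 FPKM, had a mean of 0.489 ± 0.11 FPKM in the control, was listed at 0 in all 6 libraries of 12 h, and had means of 0.0171 and 0.124 FPKM at 24 h. The corepressors Nab1 and Nab2, which bind EGR proteins, were called in 0 of 4 comparisons with the control by limma, and Nab1 alone had an unadjusted p below 0.05, in 1 of the 4, at 12 h after 5 Gy. Nab2 stood at 28.9 FPKM in the control and 22.3, 32.6, 46.1 and 38.3 FPKM in the exposed groups.

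Nr4a1 (Nur77), the nuclear receptor of this set with the highest level, moved in opposite directions at the 2 times. It lies at chr7:142905758-142920216 on the plus strand. Control libraries had 33.6, 36.6 and 38.6 FPKM, against 6.56, 4.16 and 2.31 FPKM at 12 h after 5 Gy and 8.08, 5.71 and 4.66 FPKM at 12 h after 20 Gy. It reached 487, 420 and 314 FPKM at 24 h after 5 Gy and 993, 542 and 669 FPKM at 24 h after 20 Gy. The order of groups was thus 12 h after either dose, whose libraries overlapped, then the control, then 24 h after 5 Gy and 24 h after 20 Gy, with no overlap among these last 3. Its log2 fold change against the control was -2.88 and -2.41 at 12 h (SE 0.29, limma adjusted p = 3.45e-05 and 1.60e-04) and 3.43 and 4.26 at 24 h (adjusted p = 6.48e-07 and 1.12e-07). Group means were 8.36-fold and 5.90-fold lower at 12 h and 11.2-fold and 20.3-fold higher at 24 h, and all 4 calls held in all 17 alternatives. In both 12 h groups the same replicate numbers gave the highest and the lowest values of Nr4a1 as of Egr1.

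Nr4a2 (Nurr1), known for dopamine neuron development and also induced in vessels by inflammatory signals, was near 2 FPKM in every group but those of 24 h. Its values were 2.35, 1.89 and 1.95 FPKM in the control, 2.33, 2.23 and 2.66 FPKM at 12 h after 5 Gy, and 2.54, 1.85 and 2.73 FPKM at 12 h after 20 Gy. The later libraries, of 24 h, had 113, 116 and 95.4 FPKM after 5 Gy and 131, 85.6 and 99.4 FPKM after 20 Gy. The groups of 12 h overlapped the control and those of 24 h stood far above it. Log2 fold changes were 0.16 and 0.13 at 12 h (SE 0.15, limma adjusted p = 0.52 and 0.606) and 5.15 and 5.10 at 24 h (adjusted p = 1.02e-10 and 1.04e-10), or group means 52.5-fold and 51.0-fold higher. On chromosome 3 (minus strand), the annotated transcript ENSRNOT00000041394 held 59.9% and 63.7% of the level at 24 h. An assembled transcript of 9 exons that begins farther upstream, at chr3:43111657-43128546, held 26.2% and 21.8%.

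Nr4a3 (Nor1), the third receptor, followed Nr4a2. It had 0.457, 0.795 and 0.653 FPKM in the control, 0.459, 0.728 and 0.634 FPKM at 12 h after 5 Gy, and 0.602, 0.566 and 1.02 FPKM at 12 h after 20 Gy. At 24 h the values were 93.4, 87.2 and 80.4 FPKM after 5 Gy and 114, 81.8 and 97.6 FPKM after 20 Gy. The 12 h libraries were mixed with the control, and the log2 fold change there was -0.02 and 0.08 (SE 0.14, limma adjusted p = 0.938 and 0.772), of either sign with the libraries used. At 24 h it was 5.75 and 5.91 (adjusted p = 2.52e-11 and 2.15e-11), with group means 137-fold and 154-fold higher, the highest ratios among the 10 genes. The locus, chr5:63781801-63821637 on the plus strand, held an annotated transcript, ENSRNOT00000008302, with 95.5% and 94.0% of the level at 24 h.

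**Figure D3:**
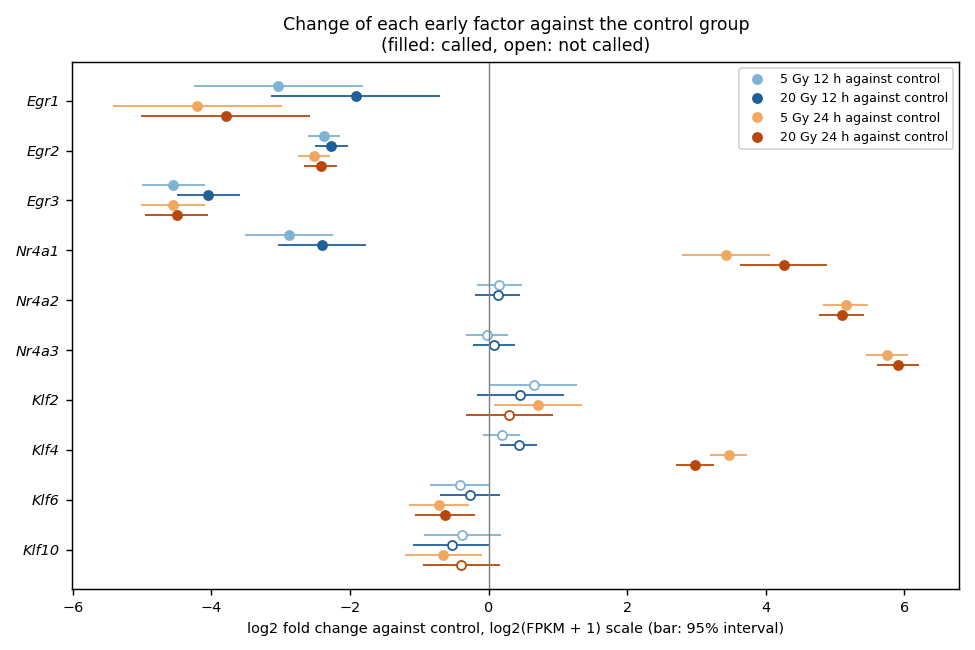
Log2 fold change against the control (x axis, log2(FPKM + 1) scale, 95% interval as bar) of the 10 genes (rows) in the 4 exposed groups (colours), filled where called and open where not. The EGR genes lie left of 0 in all 4 groups, Nr4a1 lies left at 12 h and right at 24 h, Nr4a2, Nr4a3 and Klf4 lie far right at 24 h only, and Klf2, Klf6 and Klf10 lie within 0.72 of 0.

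Klf4, which restrains proliferation and inflammation in vessel cells and is known as a reprogramming factor, was the one gene with a large change among the 4 KLF genes chosen. It lies at chr5:72283313-72287669 on the minus strand. The control libraries had 51.2, 48.9 and 44.9 FPKM, the 12 h libraries 53.0, 54.4 and 58.1 FPKM after 5 Gy and 66.4, 66.6 and 63.5 FPKM after 20 Gy. The 24 h libraries had 594, 544 and 500 FPKM after 5 Gy and 456, 304 and 419 FPKM after 20 Gy. All 4 exposed groups lay above the control without overlap, narrowly at 12 h. In the same 4 comparisons, 38.5%, 36.8%, 67.4% and 62.7% of all genes did not overlap the control. Log2 fold changes were 0.19 (SE 0.12, limma adjusted p = 0.33) and 0.43 (adjusted p = 0.0309) at 12 h, the latter short of the fold required for a call. At 24 h they were 3.47 and 2.98 (adjusted p = 4.99e-10 and 1.82e-09), or 11.3-fold and 8.13-fold higher group means.

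Klf2, the flow-induced KLF gene of endothelium, on the minus strand at chr16:19222440-19225037, was low throughout. It had 5.70, 4.08 and 3.67 FPKM in the control, 5.60, 5.45 and 13.4 FPKM at 12 h after 5 Gy, and 6.79, 6.10 and 6.46 FPKM at 12 h after 20 Gy. By 24 h it had 7.79, 9.19 and 6.85 FPKM after 5 Gy and 6.21, 3.68 and 7.81 FPKM after 20 Gy. Replicate 3 at 12 h after 5 Gy stood apart from its group, and groups overlapped the control at 12 h after 5 Gy and 24 h after 20 Gy. Log2 fold changes were 0.65, 0.46, 0.72 and 0.30 (SE 0.29, limma adjusted p = 0.146, 0.327, 0.0497 and 0.395). The call at 24 h after 5 Gy was just inside the threshold and was lost in 12 of 17 alternatives, with adjusted p from 0.011 to 0.269, among them the omission of control replicate 2 or 3 (0.115 and 0.144) or of replicate 1, 2 or 3 of the 24 h group (0.0913, 0.138 and 0.0593).

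Klf6, a widely expressed KLF gene induced in injured vessels, has annotated transcripts across chr17:67887939-67945037 on the minus strand. It had 19.3, 19.7 and 25.8 FPKM in the control, 17.0, 15.7 and 14.9 FPKM at 12 h after 5 Gy, and 20.4, 18.4 and 14.6 FPKM at 12 h after 20 Gy. At 24 h it had 10.5, 12.8 and 15.2 FPKM after 5 Gy and 9.76, 18.5 and 13.5 FPKM after 20 Gy. All libraries of 24 h were below the control, by a small margin. Log2 fold changes were -0.41, -0.27, -0.71 and -0.63 (SE 0.20, limma adjusted p = 0.179, 0.414, 0.00806 and 0.0162). In the control, ENSRNOT00000023033 of 12 exons held 49.1% of the summed level and ENSRNOT00000078532 of 4 exons held 50.9%. In limma over 41932 transcripts, the former was called lower at 24 h after 5 Gy only (adjusted p = 0.0139, against 0.107 after 20 Gy). The latter was called lower after 20 Gy only (adjusted p = 0.049, against 0.104 after 5 Gy). The calls of the summed level at 24 h after 5 Gy and 20 Gy were lost in 3 and 6 of 17 alternatives (adjusted p up to 0.0689 and 0.0792). Without control replicate 3 the calls at 24 h after 5 Gy and 20 Gy were both lost (log2 fold change -0.585 with adjusted p = 0.0397, and -0.50 with adjusted p = 0.072), and the latter was also lost without replicate 1 of its group (adjusted p = 0.0792) and when each library was centred on its median (-0.58, adjusted p = 0.0167, below the required fold), rescaled to TPM (-0.575, adjusted p = 0.0229) or fitted with only the groups compared (adjusted p = 0.0548).

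Klf10, the TGF-beta induced KLF gene (TIEG1), lies on the minus strand of chromosome 7 at chr7:77156006-77162148. It had 18.5, 19.5 and 18.5 FPKM in the control, 10.7, 13.1 and 20.5 FPKM at 12 h after 5 Gy, and 11.1, 12.7 and 14.5 FPKM at 12 h after 20 Gy. At 24 h it had 14.7, 13 and 8.12 FPKM after 5 Gy and 20.2, 11.3 and 12.1 FPKM after 20 Gy. The control values were tight and those after exposure varied, with 1 library each at 12 h after 5 Gy and 24 h after 20 Gy above all controls. Log2 fold changes were -0.38, -0.53, -0.66 and -0.39 (SE 0.26, limma adjusted p = 0.342, 0.185, 0.0416 and 0.204). The 1 call, at 24 h after 5 Gy, was lost in 11 of 17 alternatives (adjusted p from 0.0195 to 0.183), among them leaving out any 1 control library (0.0755, 0.0937 and 0.0782) or replicate 2 or 3 of the 24 h group (0.0529 and 0.183). Without replicate 1 at 24 h after 20 Gy, Klf10 was called lower there as well (log2 fold change -0.64, adjusted p = 0.0475).

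Between the 2 times, after the same dose, 4 genes rose, Nr4a1, Nr4a2, Nr4a3 and Klf4. After 5 Gy the log2 fold changes of 24 h against 12 h were 6.31, 5.00, 5.78 and 3.28 for these genes, and after 20 Gy 6.67, 4.96, 5.84 and 2.55, with limma adjusted p of at most 8.16e-09. Nr4a1, which started from its reduced 12 h level, had group means 93.8-fold and 119-fold higher. Of all genes, 17.1% were called higher and 19.3% lower after 5 Gy, and 14.1% higher and 22.1% lower after 20 Gy, where the median of all genes was -0.15. Egr1 was called lower at 24 h than at 12 h after 20 Gy (log2 fold change -1.87, SE 0.56, adjusted p = 0.013). After 5 Gy its value was -1.17 (adjusted p = 0.0967), without overlap of the libraries, as for 62.8% of all genes. A call was made there once replicate 3 of 12 h was left out (-1.64, adjusted p = 0.0324). The 20 Gy call was lost when only the groups compared were fitted (adjusted p = 0.056).

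**Figure D4:**
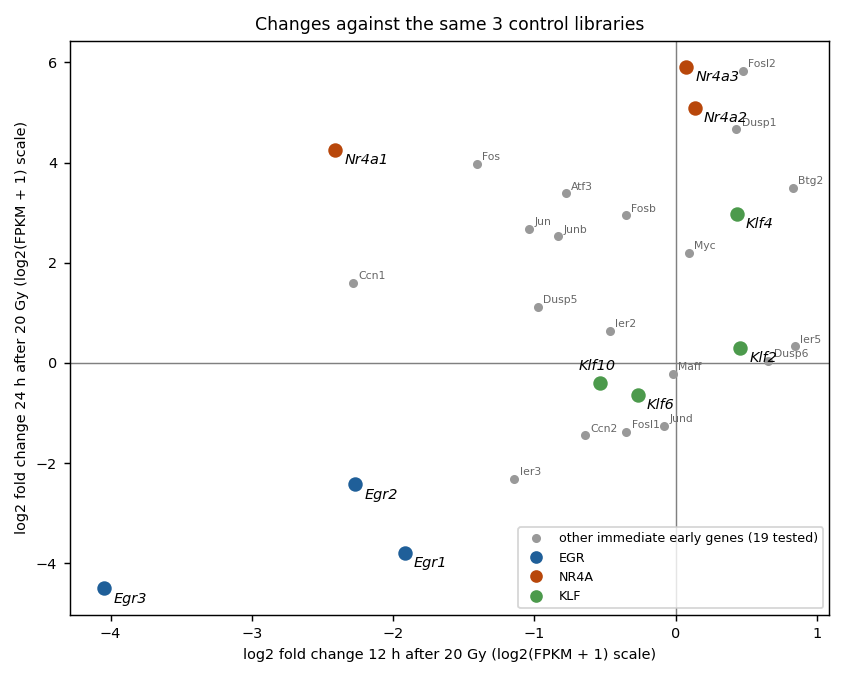
Log2 fold change against the control at 12 h after 20 Gy (x axis) and at 24 h after 20 Gy (y axis), both on the log2(FPKM + 1) scale and both against the same 3 control libraries, for the 10 genes (coloured by family) and 19 other immediate early genes (grey). Among the genes at upper left (lower at 12 h, higher at 24 h) are Nr4a1, Fos, Jun, Junb, Atf3, Dusp5 and Ccn1. Egr1, Egr2 and Egr3 lie at lower left. Nr4a2, Nr4a3, Klf4, Fosl2 and Dusp1 lie near 0 on the x axis and high on the y axis.

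The dose was compared at each time. At 12 h, 0 of the 10 genes were called between 20 Gy and 5 Gy by limma, 1 had an unadjusted p below 0.05 (Egr3), and 0.123% of all genes were called. The difference of Egr1 at 12 h had a 95% interval of -0.10 to 2.34 on the log2 scale and its libraries overlapped. Groups of 12 h did not overlap for 2 of the 10, Egr3 and Klf4, as for 12.8% of all genes. At 24 h, 0 of 10 were called, 2 had an unadjusted p below 0.05 (Nr4a1 and Klf4), and 2.42% of all genes were called. Groups of 24 h did not overlap for 4 of the 10, Egr1, Egr2, Nr4a1 and Klf4, as for 23.2% of all genes. Klf4 was lower after 20 Gy than after 5 Gy by a log2 difference of -0.49 (95% interval -0.76 to -0.22, limma adjusted p = 0.0433), which is under the fold required for a call. It was called without replicate 1 after 20 Gy (-0.61, adjusted p = 0.022) and after quantile normalization (-0.68, adjusted p = 0.0157). Nr4a1 differed by 0.83 (95% interval 0.19 to 1.46, adjusted p = 0.133). The change from 12 h to 24 h was not called as different between doses for any of the 10 (0 by limma, 1 at an unadjusted p below 0.05, Klf4 with -0.74 and adjusted p = 0.0865), against 0.52% of all genes.

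Within Nr4a1 the transcripts shifted with dose at 24 h. The main transcript, ENSRNOT00000010171 with 7 exons and 2484 bases, and an assembled transcript, MSTRG.21986.2 with 6 exons and 2354 bases, share the span chr7:142912316-142920216. The assembled transcript had 7.56, 7.69 and 0 FPKM after 5 Gy and 144, 96.2 and 88.7 FPKM after 20 Gy, so the groups were far apart. It held 1.13% of the gene's level after 5 Gy and 15.2% after 20 Gy (13.3% to 17.7% in single libraries), and it was at most 1.15 FPKM in any control library and at 0 in all libraries of 12 h. The main transcript had 480, 412 and 314 FPKM after 5 Gy and 846, 446 and 580 FPKM after 20 Gy. In limma over 41932 transcripts, of which 1.1% were called between the doses at 24 h, the assembled transcript was higher after 20 Gy by 4.68 on the log2 scale (SE 0.66, adjusted p = 0.00454), and the main one by 0.60 (SE 0.30, adjusted p = 0.501). This transcript was singled out after its values were seen, and reads shared by overlapping transcripts were divided between them by the assembler.

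**Figure D5:**
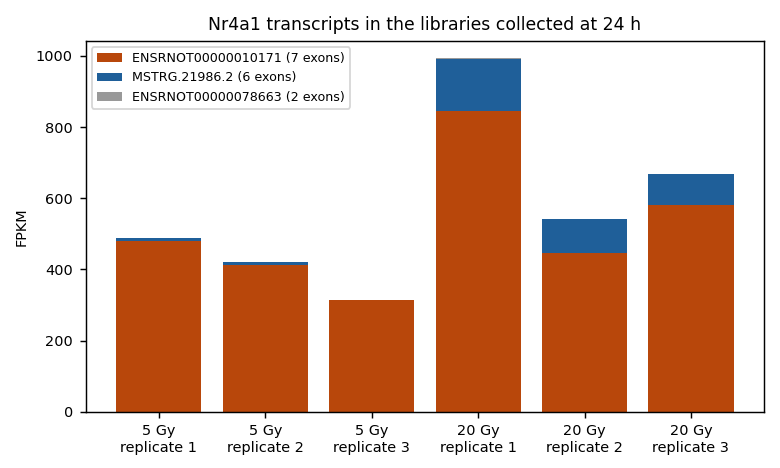
FPKM (y axis, stacked from 0) of the 3 transcripts of Nr4a1 in the 6 libraries collected at 24 h (x axis). The assembled transcript MSTRG.21986.2 holds a visible part of each library after 20 Gy, 88.7 to 144 FPKM, and at most 7.69 FPKM after 5 Gy.

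The genes most like each member over the 15 libraries, by Pearson r of log2(FPKM + 1) among 8898 annotated genes with a mean of at least 5 FPKM, are given as a description, since all points share the same 5 groups. Egr2 was closest to Egr3 (r = 0.996) and then to Mcm2 (0.974), a subunit of the replicative helicase that went from 51.8 FPKM in the control to 15.4 to 19.0 FPKM in exposed groups. Egr3 was closest to Mcm4 (0.98), of the same helicase, followed by Mcm2, where Egr2 itself was not among the genes compared since its mean is below 5 FPKM. Egr1 was closest to Tgfb1 (0.973), which had 31.0 FPKM in the control and 8.85 to 16.7 FPKM after exposure, followed by Tnfrsf12a and Msmo1. Nr4a1 was closest to Fos (0.992), followed by Kpna3 and Pim1. Nr4a2 was closest to Smad1 (0.999), Rasgef1b and Nr4a3, and Nr4a3 to Ube2j1 (0.998), Rasgef1b and Nr4a2. Klf4 was closest to Camsap1 (0.997), Cbr3 and Phf13. The genes with small changes had looser neighbours: Rnase4 for Klf6 (0.952), Fxyd5 for Klf10 (0.885) and Rabggta for Klf2 (0.837). Among the members themselves, r was 0.998 between Nr4a2 and Nr4a3, 0.99 between Klf4 and Nr4a2, 0.893 between Klf4 and Nr4a1, and 0.853 between Egr1 and Egr2.

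Factors that control these genes were taken as a list of 19, of which 17 were tested. In the 4 comparisons with the control, 1, 0, 7 and 5 of the 17 were called higher and 1 in each was called lower, beside 4.98%, 4.9%, 20.5% and 17% of all genes called higher and 4.96%, 3.64%, 20.8% and 23.3% called lower, with median log2 fold changes of -0.01, -0.08, 0.56 and 0.02. The gene called lower each time was Srf, the factor that binds CArG boxes, which went from 42.0 FPKM in the control to 14.2, 13.6, 18.3 and 12.4 FPKM (log2 fold changes -1.50, -1.57, -1.18 and -1.72, limma adjusted p at most 2.07e-04). Its partner Mrtfa was higher at 24 h by 0.62 and 0.66. Crem, a CREB relative with activating and repressing isoforms, had 3.84 FPKM in the control, 4.06 and 4.39 FPKM at 12 h, and 136 and 125 FPKM at 24 h (4.82 and 4.64, adjusted p at most 2.04e-09). Mef2a and Mef2d, which bind promoters of KLF and NR4A genes, rose at 24 h by 1.68 and 1.65 and by 1.42 and 1.05, Mef2d also at 12 h after 5 Gy by 0.60, and Atf1, another CREB relative, by 0.87 and 0.74.

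Of 14 relatives in the EGR and KLF families, 8 were tested, and 1, 1, 4 and 3 were called higher and 0 lower in the 4 comparisons, beside the same shares of all genes. Klf15 was called in all 4, from 41.8 FPKM in the control to 75.3 to 83.3 FPKM. Klf13 went from 4.16 FPKM to 23.4 and 14.0 FPKM at 24 h (log2 fold change 2.11 and 1.24), and Klf3 rose by 0.77 and 0.88 at 24 h. Klf9, a glucocorticoid-induced KLF gene, was called at 24 h after 5 Gy only (0.63), against 0.09 after 20 Gy.

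Of 12 genes known as targets of EGR1, KLF2 or KLF4 in endothelium, 8 were tested. Of these 8, 2 were called higher in each of the 4 comparisons, beside 4.98%, 4.9%, 20.5% and 17% of all genes. Cdkn1a, the p21 cell cycle inhibitor, was higher in all 4 groups (log2 fold changes 2.36, 3.76, 2.79 and 3.77), from 46.9 FPKM in the control to 640 FPKM at 24 h after 20 Gy. Edn1, the vasoconstrictor endothelin-1, rose by 0.90, 0.83, 1.29 and 1.55. Pdgfa, a growth factor gene, was called lower at 24 h, with log2 fold changes of -1.07 and -0.96. Nos3, which KLF2 activates in endothelium, was at or below 0.0235 FPKM in every group.

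Of 21 other immediate early genes, 19 were tested. At 12 h, 0 and 2 were called higher and 9 and 8 lower, beside 4.98% and 4.9% of all genes higher and 4.96% and 3.64% lower. At 24 h, 9 and 11 were called higher and 4 and 4 lower, beside 20.5% and 17% of all genes higher and 20.8% and 23.3% lower. Median log2 fold changes of the 19 were -0.77, -0.35, 0.47 and 1.60. Fos, of the AP-1 family, shared the course of Nr4a1: its mean was 10.2 FPKM in the control, 1.65 and 3.42 FPKM at 12 h, and 137 and 176 FPKM at 24 h (log2 fold changes -2.13, -1.41, 3.62 and 3.97). Junb (-1.69, -0.83, 2.66 and 2.53), Atf3 (-0.75, -0.78, 1.44 and 3.39) and Dusp5 (-1.49, -0.98, 1.28 and 1.12) were called in the same directions. Jun and Ccn1 were called lower in both 12 h groups, but higher at 24 h after 20 Gy only. Fosl2 and the phosphatase gene Dusp1 were called at 24 h alone, by 6.01 and 5.83 and by 4.30 and 4.66, and Btg2, a p53 target that slows proliferation, rose there by 3.22 and 3.50 and at 12 h after 20 Gy by 0.83. The count called lower at 24 h, 4 of 19 after each dose, was near the share of all genes. These were Ier3, Ccn2, Fosl1 and Jund, with log2 fold changes at 24 h after 20 Gy of -2.31, -1.45, -1.37 and -1.26. Arc, untested for its low mean, went from 1.45 FPKM in the control to at most 0.119 FPKM in the exposed groups.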

How the data were processed

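Poly-A RNA of 15 libraries was sequenced. The authors, by their methods, trimmed reads with Trimmomatic, used HISAT2 for alignment to Rnor_6.0 and StringTie for assembly of transcripts, and they deposited FPKM per transcript. The extract and processing notes also name kallisto and edgeR, which serve counts not used here. Since FPKM are not counts, no count test was run: gene sums as log2(FPKM + 1) were tested in limma 3.58.1 (R 4.3.3, with trend), 1 model over 5 groups, Benjamini-Hochberg over 17895 genes with a mean of at least 0.5 FPKM, fold change of at least 1.5. The members and lists were chosen with earlier results of these data known. All members were named, and of each list up to 4 called genes per direction by their change at 24 h after 20 Gy. Some other immediate early genes that shared the course of Nr4a1, or part of it, were named as well. On simulated data for 24 h after 20 Gy against the control with 200 of 17895 genes changed, 84% of changes of 1 and 97% of changes of 2 on the log2 scale were called, with 11 unchanged genes called. The changed genes were drawn from better expressed genes, with independent normal noise, and were far fewer than the genes called in the data. The rates thus do not cover low genes such as Egr2.

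Depth was estimated from the lowest steps of FPKM, where 78.2% to 83.3% of the values of short transcripts of 1 exon came out as a whole number of aligned bases within 0.1, against 16.4% to 17.7% at other steps. Reads per gene were not recovered, and read equivalents are these bases divided by a read of 150 bases. Transcripts at a locus holding several gene names (909 loci) were left out unless named. FPKM of a gene depends on how the assembler divided reads among overlapping transcripts. Strandedness was not given in the sources used here. RefSeq promoters (GRCr8) were used for sequence alone. Alternatives changed the pseudocount (0.1), the filter (none, or 1 FPKM), the scaling, the fold (2), the transcripts summed, the groups fitted, the replicate number as a block, and each library in turn. The fold of 2 drops every smaller change and keeps every larger one, with the adjusted p as it was. The lost calls counted for Klf2, Klf6 and Klf10 include this setting, and calls of larger changes could not be lost by it. Centring on the library median and the transcript fit were added after seeing the data. Smallest exact p of 3 against 3 libraries is 0.1, so single genes are given as overlapping or not. Some genes of the lists are not reported here.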

Additional observations from a re-analysis of the deposited data

Results flagged for a closer look

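In the test of 20 Gy against 5 Gy at 24 h, Klf4 had a log2 difference of -0.49 (limma adjusted p = 0.0433, all 3 libraries after 20 Gy below all 3 after 5 Gy), which is under the 1.5-fold change required, so that it was not called. The assembled transcript MSTRG.21986.2 of Nr4a1 differed between the same groups by 4.68 on the log2 scale (limma adjusted p = 0.00454 over 41932 transcripts, higher in 3 of 3 libraries).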

How the results depend on the processing

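Over the alternatives, the number of members called was 4 throughout at 12 h after 5 Gy and ranged from 3 to 4 at 12 h after 20 Gy, 7 to 10 at 24 h after 5 Gy and 7 to 8 at 24 h after 20 Gy, each against the control, and from 4 to 5 and 4 to 6 for 24 h against 12 h after 5 Gy and 20 Gy. For 20 Gy against 5 Gy at 24 h, 0 members were called in the analysis reported, 1 after quantile normalization and 0 to 1 when each library was left out in turn, the 1 being Klf4. At 12 h and for the change over time, 0 were called in any. Of single log2 fold changes, 900 kept direction and call, 42 lost the call, 4 gained it and 6 changed sign, all 6 for Nr4a3 at 12 h, whose values lie near 0: after 5 Gy it was 0.10 with annotated transcripts only, 0.10 with the highest transcript only and -0.10 to 0.0467 with single libraries left out, and after 20 Gy -0.0408 to 0.146 with single libraries left out. The cause was not tested. With the replicate block, 4, 4, 8 and 8 members were called against the control, 4 and 5 between times and 0 in the comparisons of dose, the calls of Klf2 and Klf10 at 24 h after 5 Gy being lost (adjusted p = 0.0539 and 0.0632). Over all pairs of groups, correlations of deviations ran from -0.177 to 0.232 over 30 pairs of the same number and -0.209 to 0.203 over 60 pairs of different number. Between the doses they were 0.161, 0.045 and 0.232 for the same number at 12 h, against -0.192 to 0.056 for different numbers, and 0.155, 0.064 and 0.083 at 24 h, against -0.102 to 0.022. At 24 h each library correlated best with its own number, at 12 h not each did. Since not every pair was above 0.1, the numbers were not taken as pairs. Low read numbers limit the values of Egr2 and Egr3 after exposure.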
